A study of Mus musculus with 6 samples.

Results

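The genes described here are the mouse genes whose symbol is Zfp followed by a number, measured in macrophages grown from the bone marrow of mice exposed to cigarette smoke or to room air. They were chosen by symbol and level: the symbol had to be Zfp and digits, Zfp36 was left out, and the mean of the 2 group means in the authors' deposited table had to reach 50 normalized counts. Of 312 such rows in a list of 19386 genes, with 311 distinct symbols, 165 passed that level and 147 did not; Zfp865 has 2 rows with different gene identifiers, 1 on each side of the level. The mice were wild type and of the C57BL/6 strain. Marrow freed of erythrocytes was cultured with supernatant of L929 cells, whose growth factor turns marrow cells into macrophages, and harvested on day 11. Each group, room air and cigarette smoke, had 3 libraries, numbered 1 to 3 in the titles, and the labels give neither the dose nor the duration of the smoke. The cells were thus grown outside the animal under conditions that yield macrophages, and only the animal was exposed. The labels do not say in so many words that each library came from another mouse, so the p-values of the splicing tests measure the spread between these libraries, which may be technical. The authors' expression table has an overall mean over 24 libraries, 18 of them not analysed here, whose spread may have entered the authors' standard errors and p-values.

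Most Zfp genes encode proteins of the C2H2 class, in which 2 cysteines and 2 histidines hold a zinc ion and fold a short stretch of the chain into a finger that can read a few bases of DNA. Long arrays of fingers let one protein recognise a long site, and in rodents and other mammals these genes multiplied in clusters, many of them with a Krüppel-associated box (KRAB) at the front of the protein. The KRAB box recruits the corepressor Trim28, also called KAP1, which brings in the histone methyltransferase Setdb1 and heterochromatin proteins and silences transposable elements, imprinted regions and other targets. A second, smaller group of Zfp proteins has few fingers and works in other ways, as RNA-binding proteins, ubiquitin ligases or factors of ribosome assembly and mitosis. Zfp36, a CCCH-finger protein better known as tristetraprolin that drives the decay of cytokine messenger RNAs, is of another class and stood at 301.3 normalized counts in room air against 345.0 after smoke (adjusted p 0.75) per the authors' deposited table.

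The first finger that the pattern search found is shown for 4 of the genes whose values matter most below, because it shows the shared signature and how it is spelled in each gene. Each is a stretch of 63 coding bases inside 1 coding exon, read 5′ to 3′ on the gene's strand, and the capitals mark the codons of the 2 cysteines and the 2 histidines. The sequences and positions are from GENCODE M21 on GRCm38. Zfp871 had the largest fall, Zfp329 the next, Zfp950 the lowest GC content among the called genes, and Zfp574 was the single gene called higher.
Zfp871, chr17:32775555-32775617, minus strand: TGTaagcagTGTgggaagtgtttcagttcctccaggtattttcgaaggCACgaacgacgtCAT
Zfp329, chr7:12810978-12811040, minus strand: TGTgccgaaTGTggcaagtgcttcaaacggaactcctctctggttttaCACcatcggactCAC
Zfp950, chr19:61120269-61120331, minus strand: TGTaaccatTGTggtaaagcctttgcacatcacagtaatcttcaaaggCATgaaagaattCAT
Zfp574, chr7:25079606-25079668, plus strand: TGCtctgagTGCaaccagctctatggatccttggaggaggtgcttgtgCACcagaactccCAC
In all 4 the cysteine codons are 2 residues apart, 12 residues separate them from the first histidine and 3 residues lie between the histidines. GC made up 36.5% of the Zfp950 finger and 55.6% of the Zfp574 finger. The Zfp871 finger held 47.6% GC and the Zfp329 finger 50.8%. Over the first fingers of the 162 members that had one, the median was 46.0% and the range 27.0% to 69.6%.

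Most Zfp transcripts had a lower mean after smoke exposure than in room air, and 17 of them fell. Of the 165 genes, 18 passed the authors' adjusted p of 0.05, 17 of them lower and 1 higher in cigarette smoke, which is 10.9% of the members per the authors' deposited table. The background is close to that share: 7.69% of the 12082 genes with an adjusted p, and 8.98% of the 9016 with a mean of at least 50, passed the same threshold. The calls in each direction were even in the background and uneven among the members, a difference that was not tested. Calls lower were 4.33% and calls higher 4.66% of the genes with a mean of at least 50. Counted whether or not they passed, 133 members had a log2 fold change below 0 and 32 above, so that 80.6% were lower, against 51.2% of all genes with a mean of at least 50. The median log2 fold change of cigarette smoke over room air was -0.28 over the members and -0.01 over all genes of that level per the authors' deposited table. The members' quartiles were -0.46 and -0.08 and their extremes -1.22 and 0.58. Their median standard error was 0.20, and 55 had an unadjusted p under 0.05, of which 49 were lower. Since the genes were put forward with results of these data known, no p-value is given for the list. Fold changes in the whole table moved with GC content and transcript length, and with that trend removed 1 of the 18 calls, Zfp871, was still past the threshold. In RNA from whole cultures, fewer cells of a type and less RNA per cell cannot be told apart.

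The direction was also counted without regard to the level of 50. Both group means were at least 50 for 153 members, and 122 of these were lower. Another 11 members were at least 50 in room air alone and 1 in cigarette smoke alone. Among the 147 genes below the level, with a median of 19.3 normalized counts, 120 were lower and 27 higher and none was called, though only 98 had an adjusted p; their median log2 fold change was -0.38 per the authors' deposited table. Just inside the level were Zfp61, Zfp472 and Zfp930, with means of the 2 groups of 50.4, 50.5 and 51.3 and log2 fold changes of -0.24, -0.47 and -0.10. Just outside were Zfp169, Zfp316 and Zfp455, at 48.7, 48.4 and 48.3, with log2 fold changes of -0.62, 0.27 and -0.40, again from the authors' deposited table.

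**Figure D1:**
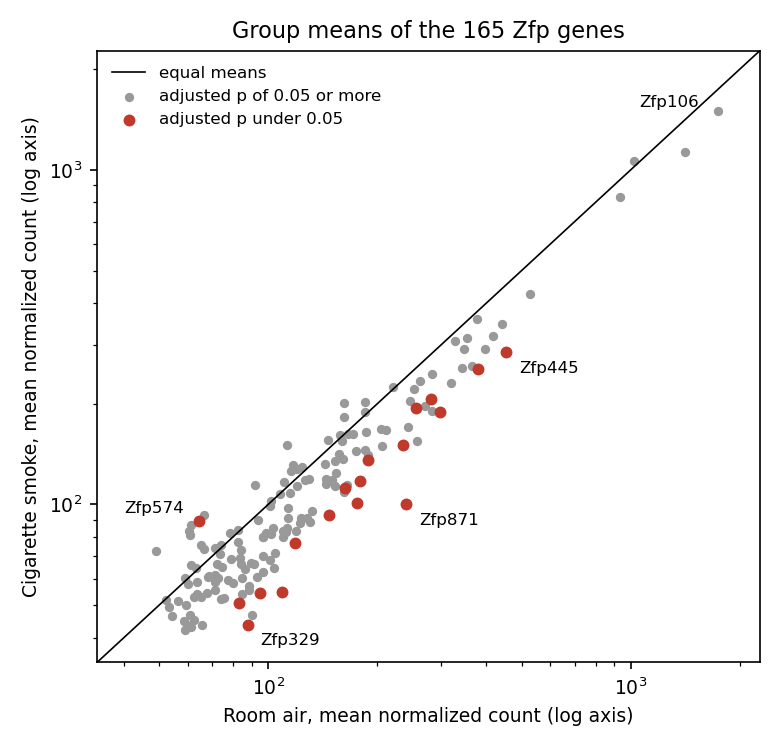
Mean normalized count of each of the 165 Zfp genes in room air (x axis) and in cigarette smoke (y axis), both on log axes, as deposited by the authors, with the line of equal means; red points passed an adjusted p of 0.05. Most points, 134 of 165, have a lower mean in smoke, and Zfp574 is the single red point above the line.

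The group means are those of cultures with a macrophage profile. All 8 macrophage markers were listed, summing to 52689 normalized counts in room air against 54621 after smoke with none called. The summed means of the neutrophil, B cell, T cell, erythroid and dendritic lists did not exceed 1.02 in either group, and no T cell marker was listed. The 5 stromal markers summed to 43.6 in room air and 6.93 in cigarette smoke, with none above 22.5 and none called; their part in the Zfp values was not tested. The expression table holds no value of a single library, so overlap of libraries cannot be shown for expression, and depth per library is unknown.

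Zfp871 showed the largest difference of the 165 genes. Its mean was 240.5 normalized counts in room air against 100.4 after smoke, a log2 fold change of -1.22 with a standard error of 0.18 and an adjusted p of 1.34e-07 per the authors' deposited table. It was the single member below a log2 fold change of -1. The gene (ENSMUSG00000024298.14) lies at chr17:32765496-32788287 on the minus strand and encodes a protein with 15 fingers and a match to the KRAB box. Its exons shared 0.25% of their 50-base stretches with other genes.

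Of the 17 genes that fell, 10 matched the KRAB pattern. After Zfp871 came Zfp182 on the X chromosome (chrX:21028939-21062316), which fell from 109.4 to 54.8 normalized counts (log2 fold change -0.91, standard error 0.23, adjusted p 0.0049 per the authors' deposited table). Zfp445, which together with Zfp57 protects imprinted methylation in the embryo, fell from 454.4 to 285.6 normalized counts, a log2 fold change of -0.65 with a standard error of 0.17 and an adjusted p of 0.0059 per the authors' deposited table. It had the highest mean of the 17. Zfp81 changed by -0.71, Zfp65 by -0.63 and Zfp738 by -0.62 on the log2 scale per the authors' deposited table. Zfp65 and Zfp738 neighbour each other on chromosome 13 and shared 7.37% and 9.12% of their 50-base stretches with other genes, the most of any called member, so their counts are less certain than the rest. Smaller falls were deposited by the authors for Zfp266 (-0.58), Zfp715 (-0.57), Zfp386 (-0.53) and Zfp26 (-0.45), all with adjusted p-values between 0.0085 and 0.047 per the authors' deposited table.

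The other 7 genes that fell had no match to the KRAB pattern, which says only that those letters were not found. Zfp329 fell from 88.0 to 43.8 normalized counts, a log2 fold change of -0.93 with a standard error of 0.23 and an adjusted p of 0.0026 per the authors' deposited table. Zfp950, with 17 fingers, fell from 176.1 to 101.0 (log2 fold change -0.80, standard error 0.16, adjusted p 0.00014 per the authors' deposited table), and by adjusted p it came next after Zfp871. Zfp40 had an equal fold change of -0.80 with a wider standard error of 0.27 and an adjusted p of 0.046 per the authors' deposited table. Zfp644, a partner of the H3K9 methyltransferases Ehmt1 and Ehmt2, fell from 235.6 to 150.3 normalized counts, by 0.65 on the log2 scale, with an adjusted p of 0.017 per the authors' deposited table. Zfp62, with 25 fingers, went from 297.4 to 188.6, and Zfp260 and the 30-finger Zfp236 showed the smallest called falls, -0.41 and -0.38 on the log2 scale per the authors' deposited table.

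Zfp574 was the single called gene that rose. It went from 64.4 to 89.1 normalized counts, a log2 fold change of 0.47 with a standard error of 0.16 and an adjusted p of 0.042 per the authors' deposited table. The gene lies at chr7:25072567-25083492 on the plus strand, encodes 18 fingers with no KRAB match, and at 58.3% had the highest transcript GC content of the 18 called genes. Zfp523 had a higher fold change, 0.58 with a standard error of 0.23, from 48.9 to 72.7 normalized counts, but an adjusted p of 0.092 per the authors' deposited table. It was named after its value had been seen.

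**Figure D2:**
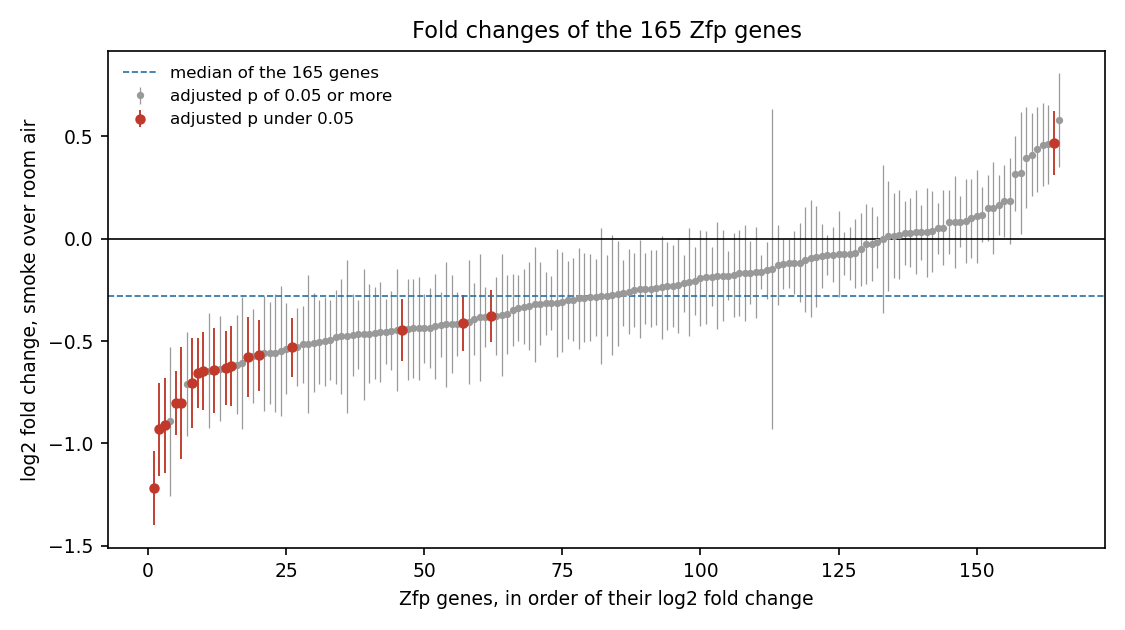
Log2 fold change of cigarette smoke over room air for the 165 Zfp genes in rank order, as deposited by the authors; bars are the authors' standard errors and red points passed an adjusted p of 0.05. The dashed line is the members' median of -0.28, and 133 points lie below 0.

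Of 20 members on a list of genes with known cellular roles, none was called, a count too small to set against the background of 8.98%, and the list does not hold every member with a known role: Zfp445 and Zfp644, both called, are not on it. Normalized counts are not corrected for length and do not rank genes by abundance. The highest were those of Zfp106, an RNA-binding protein needed in motor neurons and muscle, at 1747 in room air and 1495 after smoke, and of Zfp91, a ubiquitin ligase of the noncanonical NF-kappaB pathway, at 1413 and 1134 per the authors' deposited table. Their log2 fold changes were -0.22 and -0.32 with standard errors of 0.14 and 0.13 and adjusted p-values of 0.35 and 0.12 per the authors' deposited table. Zfp710, next in count, stood at 1024 and 1066, and Zfp207, a spindle assembly factor that stabilises the checkpoint protein Bub3, at 935.4 and 831.2 per the authors' deposited table. Zfp652, a corepressor that works with proteins of the Cbfa2t family, had 528.3 and 425.7, and Zfp148, which binds GC-rich promoters, 441.6 and 345.6, with adjusted p-values of 0.40 and 0.21 per the authors' deposited table.

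Other DNA-binding and chromatin members had values on both sides of 0. Zfp143, an activator of small nuclear RNA and many housekeeping promoters, had a log2 fold change of 0.03 with a standard error of 0.17, and Zfp281, a GC-box factor of stem cells, -0.16 with 0.22 per the authors' deposited table. Zfp217, an oncogene product that joins corepressor complexes, had -0.38 and an adjusted p of 0.078, and Zfp318, which controls the switch to IgD messenger RNA in B cells, -0.45 and an adjusted p of 0.054, the closest to the threshold of the list per the authors' deposited table. The authors' deposited table gave -0.08 for Zfp384 and 0.32, with a standard error of 0.30, for the corepressor Zfp703.

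None of the members on that list that handle RNA and ribosomes passed the threshold. Zfp622, which releases the large ribosomal subunit for use in the cytoplasm, had a log2 fold change of 0.12 with a standard error of 0.13, and Zfp598, the ubiquitin ligase that marks collided ribosomes, 0.18 with 0.18 per the authors' deposited table. Zfp346, which binds double-stranded RNA, had -0.12 with 0.19, and Zfp326, part of a complex that couples RNA polymerase II to splicing, -0.44 with 0.20 and an adjusted p of 0.15 per the authors' deposited table. Among KRAB proteins with known targets, the provirus silencer Zfp809 had -0.31 with a standard error of 0.27, Zfp568, which represses a placental Igf2 transcript, -0.08 with 0.21, and Zfp90 -0.18 with 0.20 per the authors' deposited table.

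Calls and medians were also counted by protein features, without a test between the groups; of all genes with a mean of at least 50, 8.98% were called, 4.33% lower. The pattern was found in 59 proteins translated from the annotation and not in 106. Among the matched genes 55 were lower, 10 were called, all lower, and the median log2 fold change was -0.44. Among the unmatched, 78 were lower, 8 were called, 7 of them lower, and the median was -0.18. A looser pattern that also allows tyrosine at the first position matched 65 genes, with 10 calls and a median of -0.44. By number of fingers, the 27 members with 1 to 4 fingers had no call and a median of -0.13, the 50 with 5 to 9 had 4 calls and a median of -0.24, and the 85 with 10 or more had 14 calls and a median of -0.37. The remaining 3, Zfp330, Zfp703 and Zfp839, had no match to the finger pattern. The median was 10 fingers and the highest number 36. The members are no independent replicates; across all 165, Spearman's rho of fold change with finger number was -0.31.

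Base composition moved with KRAB match, finger number and fold change. The members' transcripts were poorer in GC than those of other genes, with a median of 44.8% against 49.2% over all genes of that level, and longer, 4040 against 3518 bases. Members with a KRAB match had a median GC content of 41.1%, those without 48.5%. By finger number the median GC content was 48.6% for 1 to 4, 46.4% for 5 to 9 and 43.2% for 10 or more. Over the 165 members Spearman's rho between the deposited log2 fold change and GC content was 0.76, and over 9017 genes of the same level it was 0.55. With transcript length it was -0.18 over the members and -0.50 over the same 9017 genes. With GC at the third codon position of the coding sequence it was 0.71 over the members, and with GC of the 300 bases around the start of transcription, found in the RefSeq promoter table for 137 members, 0.38. These correlations are across genes that share the same libraries and are descriptions.

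When the members were divided into 3 equal groups by GC content, the direction followed it. All 55 members from 35.4% to 41.1% GC were lower, 13 of them called, with a median log2 fold change of -0.50. From 41.2% to 48.8% GC, 50 of 55 were lower and 3 were called, with a median of -0.28. From 48.8% to 63.5% GC, 28 of 55 were lower and 2 were called, 1 in each direction, with a median within 0.001 of 0. Other genes with a mean of at least 50 in those GC ranges had the same order: 86.4% of 826 were lower in the first range with a median of -0.28, 69.7% of 3331 in the second with -0.13, and 30.5% of 4603 in the third with 0.13. Of these other genes 13.8%, 7.39% and 8.98% were called in the 3 ranges, beside 23.6%, 5.45% and 3.64% of the members. In each range the members' median lay below that of the other genes, by an amount that was not tested. Within the low range, the 30 members with a KRAB match had a median of -0.52 and the 25 without -0.45. In the middle range these were -0.32 for 22 genes and -0.23 for 33, and in the high range 0.03 for 7 genes and -0.01 for 48.

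A trend of fold change in GC content and log2 length was therefore fitted over all tested genes and taken out. The members' median log2 fold change was then -0.14, against 0.00 for all genes with a mean of at least 50, and 125 members, 75.8%, were below 0, against 50% of those genes. Only Zfp871 still passed an adjusted p of 0.05, at a log2 fold change of -0.76 and an adjusted p of 0.0074, beside 1.38% of the 9012 genes of that level with a fitted value. The other 17 called genes were no longer past the threshold; 16 of them kept their direction and Zfp26 moved to 0.02 on the log2 scale. Zfp182 stood at -0.69 with an adjusted p of 0.11 and Zfp329 at -0.55 with 0.25, while Zfp574 stood at 0.32 with 0.41. With the trend removed, the KRAB-matched members had a median of -0.21 with 53 of 59 lower, and the others -0.12 with 72 of 106 lower. Whether GC content and length act through the RNA, the libraries or the regulation of these genes was not tested.

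**Figure D3:**
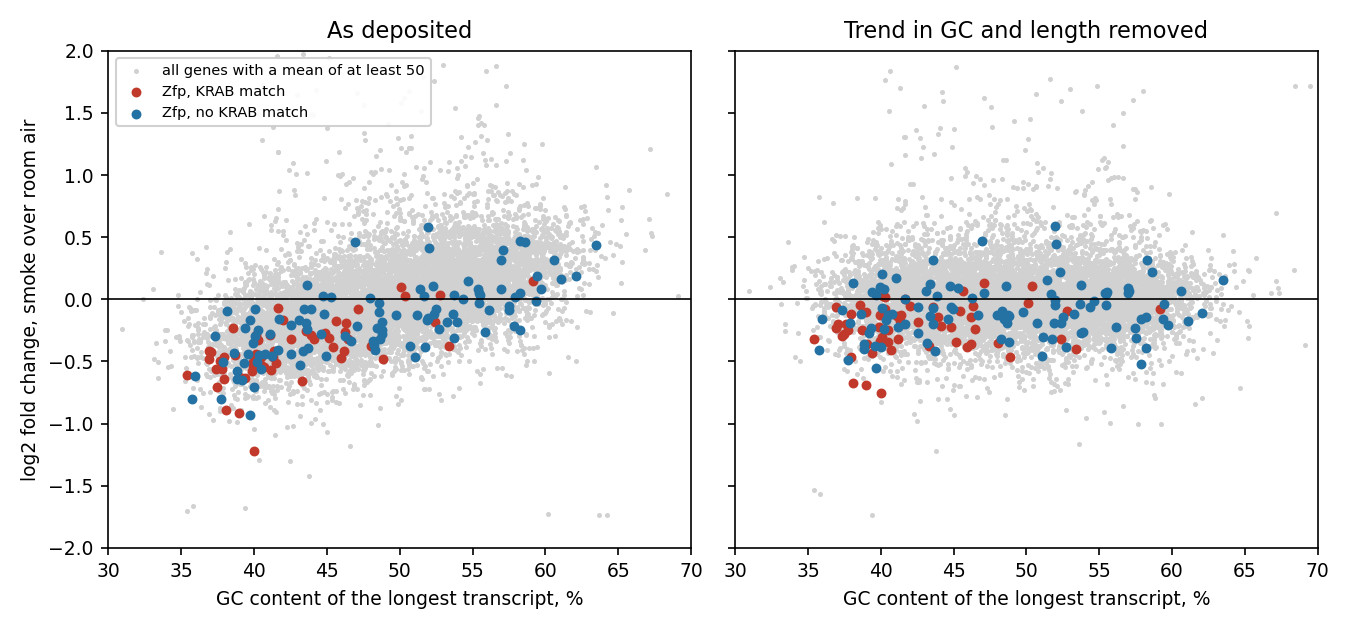
Log2 fold change of cigarette smoke over room air (y axis) against the GC content of the longest transcript in percent (x axis), as deposited by the authors (left) and with the trend in GC content and length removed (right). Grey points are genes with a mean of at least 50, of which 23 lie outside the axes; red and blue points are Zfp genes with and without a KRAB match. On the left the Zfp genes follow the slope of the grey points along its lower side, and on the right 125 of 165 lie below 0.

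Many Zfp genes sit in clusters, and several of these clusters lay wholly below 0. The 165 members formed 93 runs in which gene starts were at most 1 Mb apart, 10 of them with at least 4 members. The largest run, on chromosome 17 (chr17:21008903-23193252), held 14 members, 12 of them with a KRAB match. All 14 were lower, from -0.89 to -0.23 on the log2 scale with a median of -0.54, though Zfp40 alone was called per the authors' deposited table. Of all genes with a mean of at least 50, 51.2% were lower and 8.98% were called. A second run on the same chromosome, chr17:32765496-33631779, held Zfp871 and Zfp81, both called, and ended in Zfp414 at 0.39, the single member of its 6 that was higher. On chromosome 13 (chr13:67312998-67729173) all 7 members were KRAB genes and lower, with a median of -0.42 and Zfp65 and Zfp738 called. The 4 genes at chr9:19622102-20521417 included Zfp266 and Zfp26, both called, and had a median of -0.49.

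Other runs did not follow. At chr7:127233061-127885996, 3 of 7 members were lower and the median was 0.04, and at chr6:47835661-48445825, 3 of 6 were lower with a median of -0.01. At chr7:6131491-7121488, 1 of 4 was lower and the median was 0.25. Median GC content differed between these runs: 37.8% in the largest run of chromosome 17 and 39.1% in that of chromosome 13, but 53.2%, 55.8% and 48.5% in the 3 runs just named. After the trend was taken out, the medians were -0.27 for the largest run and -0.10 for the run of chromosome 13, and -0.14, -0.09 and 0.21 for those 3 runs, so that the first of the 3 lay below the run of chromosome 13. The 7 members at chr7:29768552-30169750, with a median GC content of 47.1%, were all lower, with medians of -0.29 before and -0.20 after. So were the 4 at chr8:69209038-69791178, with 43.7% GC and medians of -0.32 and -0.28. By chromosome, 7 had most members, 37 with 25 lower, followed by 17 with 23, of which 20 were lower, and by 8 with 14. All 13 members on chromosome 13 were lower.

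**Figure D4:**
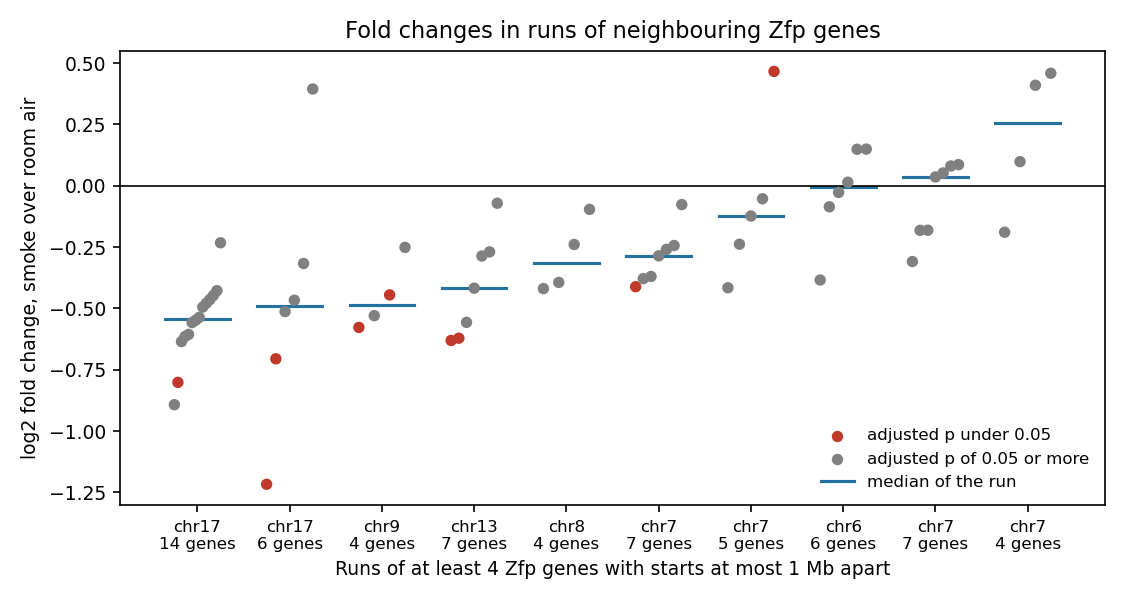
Log2 fold change of cigarette smoke over room air (y axis) for the members of the 10 runs with at least 4 Zfp genes whose starts lie at most 1 Mb apart (x axis, in order of their medians); blue lines are medians and red points passed an adjusted p of 0.05. The run of 14 genes on chromosome 17 lies wholly below 0, and the run at the right, on chromosome 7, has 3 of 4 genes above 0.

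The partners through which KRAB proteins act were called at a share close to the background. Of 31 symbols on a list of the KAP1 pathway, alternate names included, 28 were found, 27 had an adjusted p, and 3 of these, 11.1%, were called per the authors' deposited table, against 7.69% of all genes with an adjusted p. Their median log2 fold change was -0.09, with 18 lower and 10 higher. Trim28, the corepressor itself, had 734.1 normalized counts in room air against 871.2 after smoke, a log2 fold change of 0.24 with a standard error of 0.12 and an adjusted p of 0.22 per the authors' deposited table. Setdb1, the methyltransferase it recruits, had 423.1 and 353.3, a log2 fold change of -0.25 with a standard error of 0.11 and an adjusted p of 0.15 per the authors' deposited table. The called genes were Atrx, a chromatin remodeller that deposits histone H3.3 at repeats with Daxx, which fell from 1340 to 775.9 (log2 fold change -0.78, adjusted p 0.0011), Fam208a, a subunit of the HUSH silencing complex, which fell from 245.0 to 164.4 (-0.54, adjusted p 0.019), and the modifier Sumo3, which rose from 716.9 to 980.6 (0.45, adjusted p 0.0085) per the authors' deposited table. With the trend in GC content and length removed none of these 3 passed.

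Other zinc finger families of the same level were counted by the same rule. Of 9 Zkscan and Zscan genes, which carry a SCAN domain beside C2H2 fingers, 5 were called per the authors' deposited table, all lower, with a median of -0.48 over the 9; of all genes of that level 8.98% were called, 4.33% lower and 4.66% higher. Zkscan3, a repressor of autophagy genes, fell from 319.3 to 195.1 normalized counts (log2 fold change -0.70, adjusted p 0.011 per the authors' deposited table). Of 26 Zbtb genes, which pair fingers with a BTB domain, 3 were called lower and 1 higher with a median of -0.15. Of 15 Zc3h genes, whose CCCH fingers bind RNA, 2 were called lower with a median of -0.16. Of 9 Klf genes 2 were lower, with a median of 0.25, and 1 was called: Klf4, a transcription factor of macrophage differentiation and polarisation, rose from 53.9 to 97.3 (0.91, adjusted p 0.018 per the authors' deposited table). No call of these 4 families remained with the trend removed, and no difference between families was tested.

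Splicing was measured in each library as percent inclusion by JuncBASE, which classifies alternative splicing events. The coverage behind a level is not known. Of 10376 events, 41 lay in 11 members, namely Zfp91, Zfp106, Zfp207, Zfp217, Zfp335, Zfp367, Zfp384, Zfp414, Zfp511, Zfp710 and Zfp787, and none of these 11 was called for expression. Library 1 of cigarette smoke had no value for 25 of the 41 events, so many levels in smoke rest on 2 libraries. In limma's moderated test with Benjamini-Hochberg adjustment over all events, none of the 41 events had an adjusted p under 0.05, and 5 had an unadjusted p under 0.05. Over the whole table limma called 0% of events, and 10.8% had an unadjusted p under 0.05. By the authors' deposited p-values 2 of the 41 were under 0.05 and none after correction, the lowest corrected value being 0.62. The groups did not overlap in 8 of the 41 events, 7 of them lower in smoke, against 22.8% of all events. These shares are not like for like, since groups of 2 libraries avoid overlap more easily than groups of 3. A value in all 6 libraries was there for 14 of the 41 events and for 5933 of the 10376. The direction of non-overlapping events over the whole table was not counted. Without library 3 of cigarette smoke, limma called 4 of 40 member events, in Zfp207, Zfp335, Zfp367 and Zfp414, with 1064 called in the whole table. The 25 events without a value in library 1 then had at most 1 smoke value. So had every Zfp335 event. A call on 1 smoke value measures no spread within smoke.

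The lowest p belonged to an unannotated alternative acceptor of Zfp367. Its inclusion was 6.67%, 4.35% and 3.23% in the room air libraries and 0% in all 3 cigarette smoke libraries. The groups did not overlap, and limma gave a difference of -2.55 log2 odds with an unadjusted p of 0.0011 and an adjusted p of 0.16. A similar picture came from 2 introns. Retention of an intron between coding exons of Zfp384 (chr6:125024553-125024745, plus strand) was 5.56%, 16.7% and 7.14% in room air and 0% in both smoke libraries with a value, with an adjusted p of 0.18 in limma. Retention of an intron between coding exons of Zfp217 (chr2:170112615-170114060, minus strand) was 5.56%, 4.17% and 4.17% in room air and 0% in both smoke libraries with a value, also with an adjusted p of 0.18 in limma. All room air libraries were above all smoke libraries at both introns.

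The other 2 events with an unadjusted p under 0.05 were cassette events of Zfp384, both lower in smoke without overlap. A coordinated cassette was at 5.26%, 3.03% and 4.17% in room air and 0% in both smoke libraries with a value, and a single cassette at 4.76%, 5.13% and 8.57% in room air and 0% and 2.56% in smoke, with adjusted p-values of 0.21 and 0.44 in limma. Another 5 genes are given by their event of lowest p, and the lowest p of Zfp710, Zfp91 and Zfp511 was 0.25, 0.47 and 0.52 in limma, unadjusted. An intron in the 3′ untranslated region of Zfp207 (chr11:80395574-80395791, plus strand) was retained at 87.8%, 85.7% and 85.5% in room air and at 100% and 89.7% in the 2 smoke libraries with a value, so the groups did not overlap with smoke higher, and the adjusted p in limma was 0.51. A junction-only acceptor of Zfp414 was at 8.33%, 14.3% and 9.52% in room air and 0% and 6.25% in smoke, again without overlap, with an adjusted p of 0.48 in limma. An acceptor of Zfp106 read 0% in every room air library and 10.0%, 0% and 0.93% in smoke, so that 1 smoke library held most of the difference. A junction-only donor of Zfp335 read 100% in all room air libraries and 90.9% and 100% in smoke. A last exon of Zfp787 read 18.2%, 0% and 0% in room air and 10.0% and 9.09% in smoke, and the groups overlapped.

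**Figure D5:**
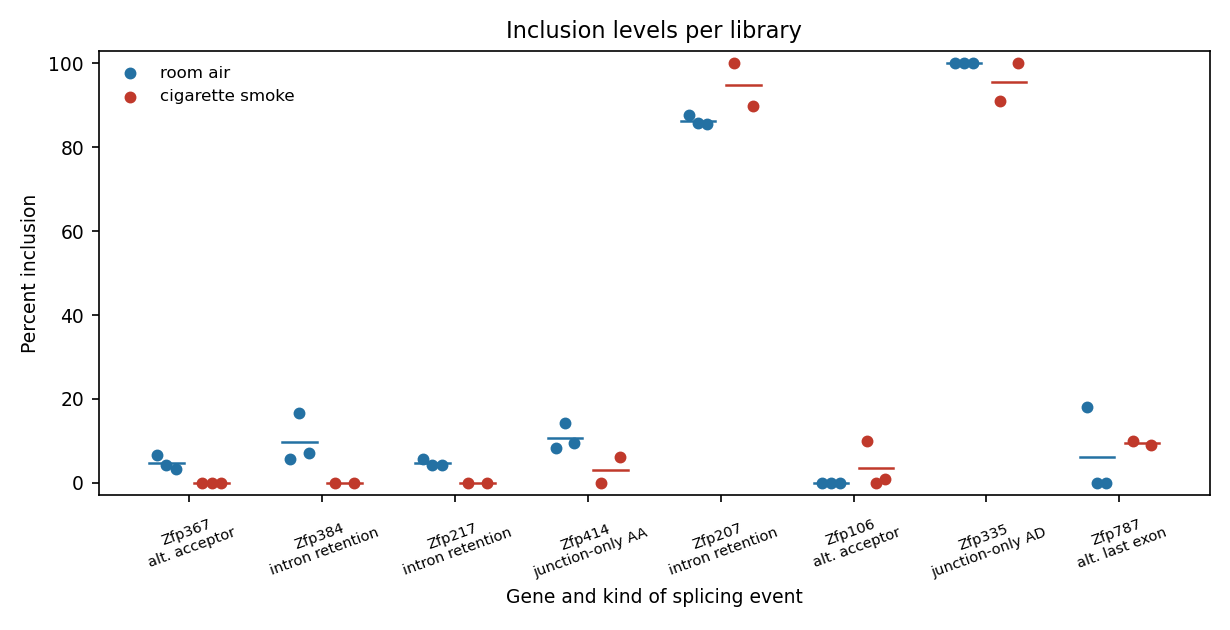
Percent inclusion per library (y axis) for the event with the lowest limma p in each of 8 Zfp genes (x axis), room air in blue and cigarette smoke in red; short lines are means of the libraries with a value, which number 2 or 3 in smoke. The Zfp367, Zfp384 and Zfp217 events are at 0% in every smoke library with a value, and the Zfp207 intron is above 85% in the 5 libraries with a value.

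Retained introns made up 7 of the 41 events. Of these 7, in 5 members, 5 had a lower mean in cigarette smoke, as had 89.9% of all 3305 retained introns. A single one had a value in all 6 libraries, an intron of 447 bases between coding exons of Zfp414 (chr17:33630682-33631128, plus strand), which also lies within Gm20507 on the same strand. Its retention was 23.1%, 17.4% and 10.0% in room air and 0%, 7.14% and 9.38% in cigarette smoke. Every room air library was above every smoke library. The room air mean was 16.8% ± 6.56 (SD, n = 3) and the smoke mean 5.51% ± 4.90 (SD, n = 3), so smoke was 11.3 points lower. An exact permutation test of the library values, two-sided, gave p = 0.1, the smallest that 3 against 3 libraries allow. For 1991 other retained introns measured in every library, the means per library were 14.7% to 16.7% in room air and 10.3% to 12.8% in smoke, a difference of -4.23 points with the same exact p of 0.1.

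The authors' deposited table of retained introns from rMATS, another program, does not say which group is set 1 and which is set 2, so its differences are given only as set 1 minus set 2. It held 51 introns in 30 members. Of these, 9 introns in 7 members had a false discovery rate under 0.05, all with more retention in set 1, which is 17.6% of the members' introns against 14.5% of all 3887 introns per the authors' deposited table. The direction was that of the whole table, where 537 of the 565 introns past the threshold were higher in set 1. Among all 51 introns 38 were higher in set 1 and 13 in set 2, and 69.8% of all introns were higher in set 1. Among the 9 introns past the threshold, the largest difference was 51.5 points in an intron of 4246 bases of Zfp90 (chr8:106419611-106423856), with a false discovery rate of 0.020. A Zfp90 entry of 4302 bases with the same start (chr8:106419611-106423912) differed by 6.0 points and did not pass. Next came 37.5 points in Zfp787 (chr7:6142620-6143061), with a false discovery rate of 0.00019 per the authors' deposited table. Zfp414 had 2 introns past the threshold, with 32.4 and 15.4 points, and Zfp384 had 2, with 12.5 and 6.4 points per the authors' deposited table. Zfp740 followed with 10.6 points, Zfp687, whose gene is mutated in a form of Paget disease of bone, with 8.0, and Zfp646 with 7.4 points per the authors' deposited table. Of the 9 introns, 3 lie within another gene on the same strand, 2 in Zfp414 and 1 in Zfp787. None of the 7 genes was called for expression, and 3 of the 18 called genes had an intron in the table.

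Both programs measured 2 of these introns. For the Zfp384 intron the JuncBASE means were 9.79% in room air and 0% in smoke, and the rMATS difference was 6.4 points with a false discovery rate of 0.0014 per the authors' deposited table. For the Zfp414 intron at chr17:33630682-33631128 the JuncBASE means were 16.8% and 5.51%, and the rMATS difference was 15.4 points with a false discovery rate of 9.27e-05 per the authors' deposited table. The expression values of these genes did not pass the threshold: Zfp414 had 112.7 normalized counts in room air and 150.2 in smoke, with 43.9% of its 50-base stretches shared with other genes, and Zfp384 had 377.0 and 359.4 per the authors' deposited table.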

How the data were processed

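Directional RNA-seq libraries were made from total RNA, per the labels' protocols. The submitters' processing notes name STAR, DESeq2, SAMtools 1.9, bedtools 2.27.1 and mm10, without their roles. The authors deposited mean normalized counts per group as signal values, with log2 fold changes, standard errors, a Wald score and p-values. Per the file headers an overall mean spans 24 libraries, 18 of which are not analysed here. The authors deposited percent inclusion per event and library from JuncBASE and p-values and differences as a score from rMATS. In rMATS 6 columns of per-sample counts and levels were not used.

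The members, lists and tests were chosen with earlier results of these data known. Since the authors' table gives only group means, the authors' fold changes and adjusted p-values were used as deposited; over the members these fold changes had a Pearson r of 0.997 with the log2 ratio of the means. Named were called members, up to 15 per direction (Zfp260 and Zfp236, beyond that number, were added after their values were seen), the 6 highest means, the 3 members on each side of the mean of 50, a list by role, the 8 lowest event p-values, one per gene, rMATS introns past the threshold and called KAP1-list genes.

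Positions, transcripts and coding sequences came from GENCODE M21 on GRCm38; the bounds of 7 of 7 JuncBASE and 47 of 51 rMATS introns of members were annotated introns. GC content and length are those of the longest transcript. Proteins were translated from the annotation because no protein table was used here. A finger is a cysteine, 2 or 4 residues, a cysteine, 12 residues, a histidine, 3 to 5 residues and a histidine; the KRAB pattern is its A-box core. The trend in GC content and log2 length used natural splines, each with 4 degrees of freedom, in a weighted linear fit (statsmodels 0.14.6, patsy 1.0.2), with p-values recomputed from residuals and deposited standard errors. Inclusion levels were tested as log2 odds, with 1 percentage point added to inclusion and exclusion, with limma 3.58.1 in R 4.3.3, Benjamini-Hochberg adjusted over all events. Both procedures were tested on simulated data in which the changes were set larger than any of the members' here. Recovery of changes as small as the members' was not tested. Alternatives changed the level, adjustment, pseudocount, scale and libraries.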

Additional observations from a re-analysis of the deposited data

How the results depend on the processing

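Removing the trend in GC content and length took the called Zfp genes from 18 to 1 and their median log2 fold change from -0.28 to -0.14, the called KAP1-list genes from 3 to 1 and those of the other families from 12 to 0. An adjusted p under 0.1 gave 31 called Zfp genes. The other alternatives for level, adjustment, centring and overlap gave 12 to 18 calls and medians of -0.32 to -0.25; leaving out members that share over 5% of their 50-base stretches, an alternative chosen after seeing the data, gave 16 calls and a median of -0.26. Leaving out 1 library gave 0 to 4 called JuncBASE events. The 4 came without library 3 of cigarette smoke, where many events kept at most 1 smoke value. For the Zfp414 intron the differences were -14.7 to -8.19 points. The cause of these shifts was not tested. The other settings called 0 member events, as did the authors' corrected p-values. Using all introns with a value gave -7.73 points over 7 introns, partly different ones in each library. A false discovery rate under 0.01 left 4 of 9 rMATS introns. Deviations of same-numbered libraries from their group means, in log2 odds, correlated at 0.02, -0.04 and -0.09 over 5933 events. Differently numbered libraries gave -0.07 to 0.13. With 3 libraries per group these values cannot show whether same-numbered libraries were paired. With the replicate block limma called 0 of 41 events, the lowest adjusted p being 0.61. The Zfp414 difference within replicate numbers was -11.3 points (exact p = 0.25, the smallest that 3 pairs allow). Expression rests on group means, so no library could be left out there, and inclusion levels come with no coverage.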
